A study of Mus musculus with 29 samples.

Results

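The Nduf genes encode most nuclear subunits of mitochondrial complex I, and the members described here were all genes with a probe set whose single platform symbol starts with Nduf. Of 74 such probe sets the brightest 1 per gene, by its mean on the 29 arrays, was taken, which gave 39 genes of the 12393 genes with a single symbol on the array. Another 8 probe sets that name an Nduf gene among several symbols were left out. By textbook role the 39 genes comprise 6 core subunits (Ndufs1, Ndufs3, Ndufs7, Ndufs8, Ndufv1 and Ndufv2), 27 accessory subunits, 5 assembly factors (Ndufaf1, Ndufaf3, Ndufaf4, Ndufaf5 and Ndufaf7) and Ndufa4, whose product is now assigned to cytochrome c oxidase.

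Complex I takes electrons from NADH, passes them through a flavin and a chain of iron-sulphur clusters to ubiquinone, and couples this to pumping protons out of the mitochondrial matrix. Its NADH-binding part is called the N module and its quinone-binding part the Q module, and both stand on a membrane arm with a proximal and a distal part that hold the pumping subunits encoded by mitochondrial DNA. MPTP is a mouse model toxin of Parkinson's disease: it is oxidised to MPP+, which dopamine neurons take up and which blocks complex I at the quinone site. The cell bodies of those neurons lie in the midbrain, while the caudate-putamen and the frontal cortex receive their axons.

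The series holds 29 Affymetrix arrays, 18 of prefrontal cortex (PFC) and 11 of caudate-putamen (CPu), from mice of the FVB/N strain, from TgS mice, which carry the human AChE-S variant of acetylcholinesterase on that background, and from TgR mice, which carry human AChE-R. Each strain has 4 naive PFC, 2 MPTP PFC, 2 naive CPu and 2 MPTP CPu arrays, except that TgR has 1 MPTP CPu array. MPTP was given as 4 injections of 20 mg/kg, 2 h apart (80 mg/kg in all), and tissue was taken on day 4. The labels speak of 6 MPTP and 6 saline mice per strain (36 mice) and do not say whether naive arrays are the saline mice, how many mice an array holds, their age or sex, or which promoter drives the transgenes. The p values therefore measure the spread between these arrays, which may be technical.

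In the source label naive PFC arrays 1 and 2 of every strain and all MPTP PFC arrays read contex. Naive PFC arrays 3 and 4 read cortex. Naive PFC arrays 1 and 2 stood apart from all others. On them the Y-linked gene Eif2s3y lay at 3.42 to 3.83 and Xist at 8.62 to 10.61, against 8.41 to 9.20 and 6.78 to 7.24 on the other 23 arrays. The 5′ minus 3′ log2 signal of actin, which falls when RNA is broken, was -2.30 to -0.79 on arrays 1 and 2, -0.92 to -0.72 on naive PFC 3 and 4 and -0.83 to -0.62 on MPTP PFC arrays. That of Gapdh was -0.66 to 0.01, -0.06 to 0.05 and 0.03 to 0.09, and TgR naive PFC 2 was the lowest in both. The part of these differences in the values against arrays 1 and 2 was not tested. Eif2s3y and Xist are sex-linked, so a difference in sex cannot be told apart there from RNA state or label spelling. MPTP in the PFC was compared with naive PFC 3 and 4, whose label spelling differs from that of the MPTP PFC arrays. The values against arrays 1 and 2, which share the spelling of the MPTP PFC arrays, are given beside them. Of the members, 18 were higher and 4 lower on arrays 1 and 2 than on 3 and 4 (limma, adjusted p below 0.05), where 39.2% of all probe sets were higher and 21.5% lower. One naive CPu array of FVB/N has a description that reads as MPTP while its title, source and treatment labels say naive, and it was kept as naive. The tissue labels fitted the cortical and striatal neuron markers. All 5 striatal projection neuron genes measured were lower in naive PFC 3 and 4 than in naive CPu, and all 3 pyramidal neuron genes higher. The mean of the pyramidal genes ran from 6.09 to 8.26 within naive CPu. That of 4 choroid plexus genes was 7.58 to 9.43 in naive CPu and 5.92 to 6.21 in naive PFC 3 and 4. For 3 thalamic genes it was 6.50 to 7.74 and 6.15 to 6.37, and for 4 oligodendrocyte genes 11.49 to 11.91 and 10.12 to 10.61. The PFC sets differed among themselves. The mean of the striatal genes was 9.20 to 10.29 on naive PFC 1 and 2, 8.74 to 8.94 on 3 and 4 and 8.58 to 8.90 on MPTP PFC. That of 3 olfactory bulb genes was 8.19 to 9.80, 6.00 to 9.18 and 6.07 to 8.79. Against arrays 1 and 2, 4 striatal and 3 olfactory bulb genes were lower after MPTP and 0 higher. The part of dissection was not tested.

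In the PFC after MPTP, 27 of the 39 Nduf genes were lower than in naive arrays 3 and 4 and 0 were higher (mean of the 3 strains, 6 against 6 arrays; limma, adjusted p below 0.05). Of all 22626 probe sets, 20.5% were lower and 26.7% higher. The median log2 difference of the members was -0.15, against 0.02 over all probe sets. The signals of 31 members were among the highest 10% on the array, at a mean log2 signal of 10.68 or more, and of all probe sets in that range 30.4% were lower, with a median difference of -0.01. The individual falls were small: the largest was 1.29-fold. These are whole-tissue values, in which fewer cells of a type and less RNA per cell cannot be told apart.

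**Figure D1:**
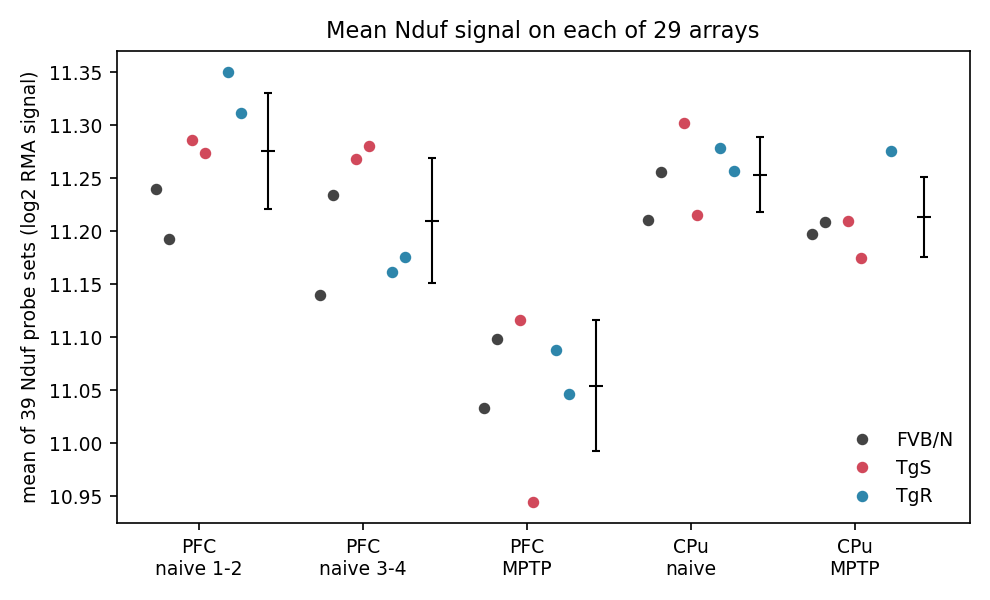
The mean log2 RMA signal of the 39 Nduf probe sets on each of the 29 arrays (vertical axis), by region and treatment and coloured by strain; the black bar gives mean and SD of each set of arrays. The 6 MPTP PFC arrays lie between 10.95 and 11.12, below all 12 naive PFC arrays and all 11 CPu arrays.

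Averaged over the 39 members, the log2 signal of the 6 MPTP PFC arrays ran from 10.95 to 11.12 (mean 11.06 ± 0.06 SD). The 6 naive PFC arrays 3 and 4 ran from 11.14 to 11.28 (11.21 ± 0.06) and the 6 naive PFC arrays 1 and 2 from 11.19 to 11.35 (11.28 ± 0.06). No MPTP PFC array reached the range of either naive set. The lowest array was TgS MPTP 2, at 10.95, and the next FVB/N MPTP 1, at 11.03. By role, the mean of the 27 accessory subunits did not overlap either (11.06 to 11.26 after MPTP, 11.33 to 11.45 in naive 3 and 4), whereas the 6 core subunits (11.49 to 11.59 and 11.52 to 11.69) and the 5 assembly factors (9.28 to 9.46 and 9.27 to 9.58) overlapped.

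Accessory subunits made up most of the change, with 22 of 27 lower. Ndufc2, an accessory subunit of the membrane arm, had the largest fall. On the 6 naive PFC arrays 3 and 4 its log2 signal was 11.83 and 11.75 (FVB/N), 11.77 and 11.79 (TgS) and 11.73 and 11.77 (TgR). After MPTP it was 11.32 and 11.54, 11.40 and 11.40, and 11.30 and 11.49. All 6 MPTP arrays thus lay below all naive PFC arrays, including arrays 1 and 2, whose lowest value was 11.61. Ndufc2 was 1.29-fold lower (log2 difference -0.365 ± 0.059 SE, limma adjusted p = 5.55e-05), and -0.37 ± 0.06 against arrays 1 and 2. Its second probe set gave -0.40 ± 0.05.

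Ndufa2, an accessory subunit of the N module with a thioredoxin-like fold, followed. Its naive PFC 3 and 4 signal was 11.16 and 11.02 (FVB/N), 11.14 and 11.10 (TgS) and 10.95 and 11.05 (TgR), and its MPTP signal 10.65 and 10.80, 10.75 and 10.44, and 10.90 and 10.83. The groups did not overlap, and the TgS array at 10.44 was the lowest of all. The difference was -0.34 ± 0.05 (limma adjusted p = 2.8e-05), and -0.48 ± 0.05 against naive arrays 1 and 2.

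Ndufb1, a small single-pass subunit of the membrane arm, had a dimmer probe set, with naive PFC 3 and 4 values of 7.84 and 7.94 (FVB/N), 8.07 and 8.08 (TgS) and 7.93 and 7.79 (TgR). After MPTP the values were 7.43 and 7.76, 7.78 and 7.49, and 7.68 and 7.55. All 6 were below the lowest naive value, by as little as 0.01 at the nearest pair. The log2 difference was -0.33 ± 0.06 (limma adjusted p = 0.000259).

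Ndufa12, an accessory subunit next to the N module, and Ndufa5, a subunit of the matrix arm, both fell by 0.26 (SE 0.05 and 0.06) on the log2 scale. Ndufa9, an accessory subunit near the quinone site, fell by 0.25 ± 0.05 and Ndufb2, in the distal membrane arm, by 0.25 ± 0.04. Ndufs4, an accessory subunit of the N module whose loss causes Leigh syndrome in humans and a like encephalopathy in mice, fell by 0.23 ± 0.06. Of the 12 members not called, 5 were accessory subunits: Ndufa1, Ndufa8, Ndufab1 (the mitochondrial acyl carrier protein), Ndufb9 and Ndufc1. Their differences ran from -0.11 (Ndufa1) to -0.02 (Ndufc1).

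**Figure D2:**
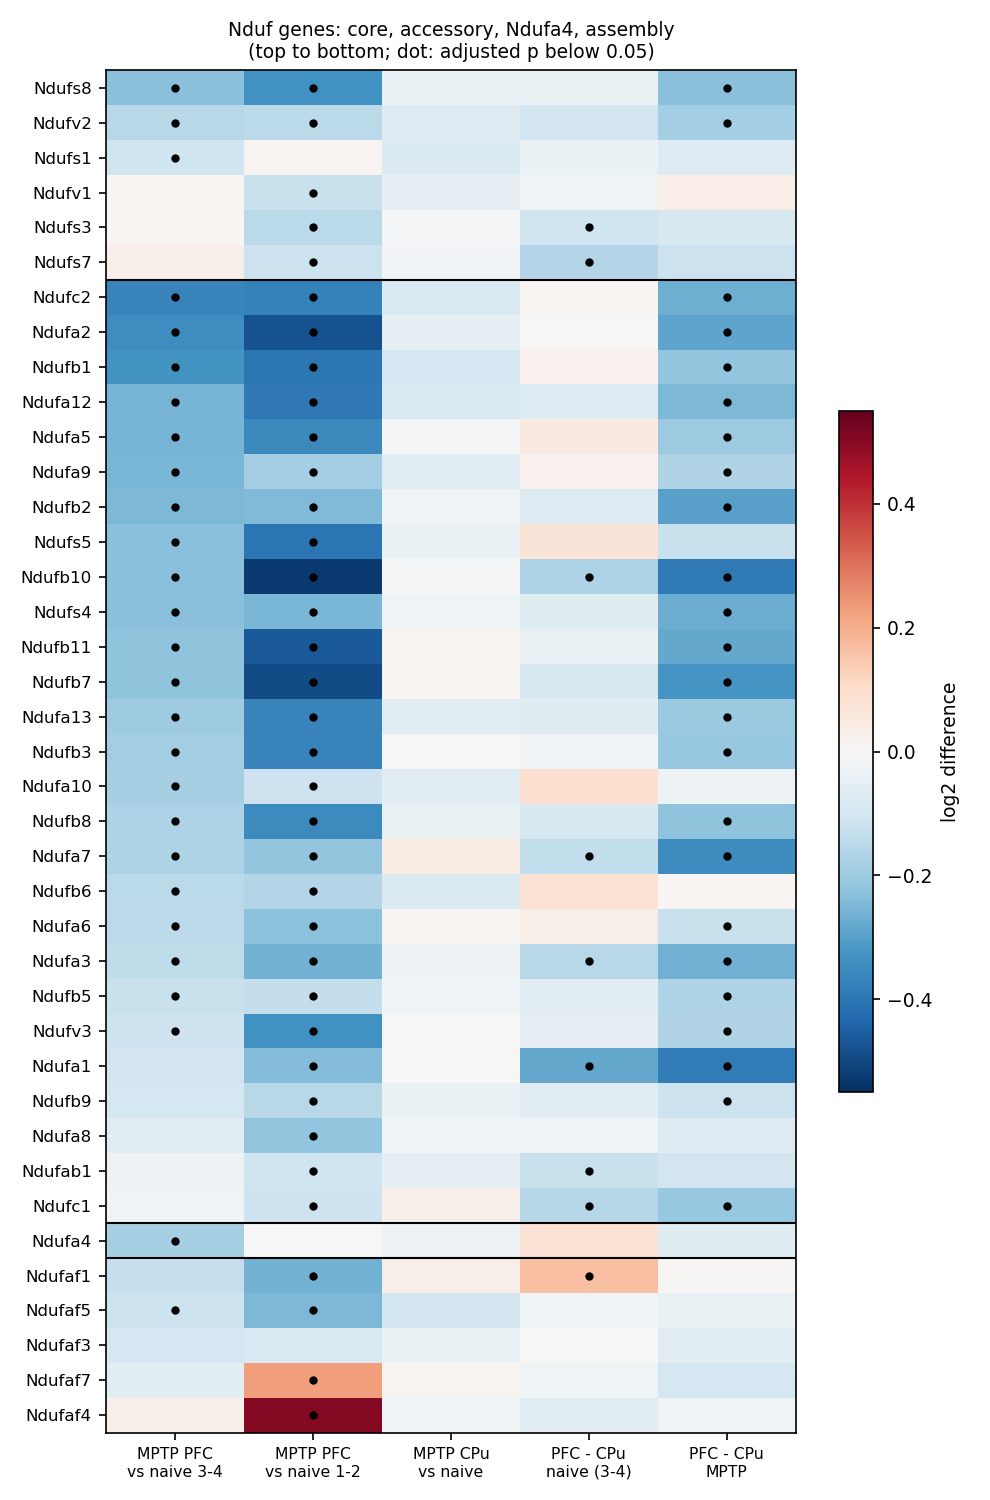
Log2 differences of the 39 Nduf genes (rows; core subunits, accessory subunits, Ndufa4 and assembly factors from top to bottom) in 5 comparisons (columns, means of 3 strains), from -0.55 in blue to 0.55 in red; a dot marks an adjusted p below 0.05. The first column holds 27 dots, all on blue, the MPTP CPu column none.

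Among the core subunits, 3 of 6 were lower. Ndufs8, which carries iron-sulphur clusters of the Q module, was at 11.88 and 11.99 (FVB/N), 12.05 and 12.12 (TgS) and 12.01 and 12.03 (TgR) in naive PFC 3 and 4, and at 11.72 and 11.74, 11.91 and 11.78, and 11.82 and 11.74 after MPTP. Within each strain both MPTP arrays were below both naive arrays, although 1 TgS MPTP value lay above an FVB/N naive one. The difference was -0.23 ± 0.05 (limma adjusted p = 0.000401). Ndufv2, an iron-sulphur subunit of the N module, differed by -0.15 ± 0.05 (adjusted p = 0.00874) and Ndufs1, the largest subunit of that module, by -0.11 ± 0.04 (adjusted p = 0.0184). Against naive arrays 1 and 2 the Ndufs1 difference was 0.01 ± 0.04 and not called.

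The other core subunits were near 0 on their brightest probe sets, although a second probe set of Ndufs7 was lower, as given below. Ndufv1, which binds NADH and the flavin, was at 11.49 and 11.54 (FVB/N), 11.49 and 11.47 (TgS) and 11.44 and 11.52 (TgR) in naive PFC 3 and 4, and at 11.40 and 11.52, 11.51 and 11.52, and 11.56 and 11.50 after MPTP. The ranges overlapped almost fully, with a difference of 0.01 (95% interval -0.08 to 0.10). Ndufs3, of the Q module, differed by 0.01 (-0.07 to 0.09) and Ndufs7, which carries the cluster nearest to the quinone, by 0.03 (-0.07 to 0.13). Against naive arrays 1 and 2 all these were lower, Ndufv1 by -0.12 ± 0.04, Ndufs3 by -0.15 ± 0.04 and Ndufs7 by -0.12 ± 0.05.

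By place in the complex, 8 of 10 N module genes were lower (median -0.15), 3 of 5 Q module genes (-0.23), 5 of 8 genes of the proximal membrane arm (-0.16) and 9 of 10 of the distal arm (-0.21). Of the Nduf assembly factors, which help to build the complex and are not part of it, 1 of 5 was lower: Ndufaf5, which modifies Ndufs7 during assembly, at -0.12 ± 0.04 (limma adjusted p = 0.0204). Ndufaf1, a factor for the membrane arm, was at -0.13 ± 0.05 (adjusted p = 0.0583), Ndufaf3 at -0.10 ± 0.06, Ndufaf7 at -0.06 ± 0.05 and Ndufaf4 at 0.03 ± 0.04. Ndufa4 was lower, at -0.18 ± 0.04, but at 0.00 ± 0.04 against naive arrays 1 and 2.

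Against naive PFC arrays 1 and 2, 34 of the 39 members were lower and 2 higher, with a median of -0.24, where 42.3% of all probe sets were lower and 25% higher and the median of all was -0.09. The members that were higher were Ndufaf4 (0.50 ± 0.04) and Ndufaf7 (0.23 ± 0.05). On arrays 1 and 2 Ndufaf4 lay at 8.80 to 9.21, against 9.28 to 9.62 on arrays 3 and 4 and 9.40 to 9.59 after MPTP. Between the naive sets Ndufaf4 was lower on arrays 1 and 2 by a log2 difference of -0.48. These values are of its brightest probe set. The other Ndufaf4 probe set lay closer together, at 8.65 to 8.82 on arrays 1 and 2, 8.87 to 9.16 on 3 and 4 and 8.74 to 8.91 after MPTP. For 12 members all 6 MPTP PFC arrays lay below all 12 naive PFC arrays, which held for 3.46% of all probe sets: Ndufa2, Ndufa5, Ndufa12, Ndufa13, Ndufb1, Ndufb2, Ndufb3, Ndufb7, Ndufb8, Ndufb10, Ndufb11 and Ndufc2. All of these are accessory subunits. Against naive 3 and 4 alone 14 members did not overlap (8.42% of all probe sets), and against 1 and 2 alone 17 (11.2%).

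**Figure D3:**
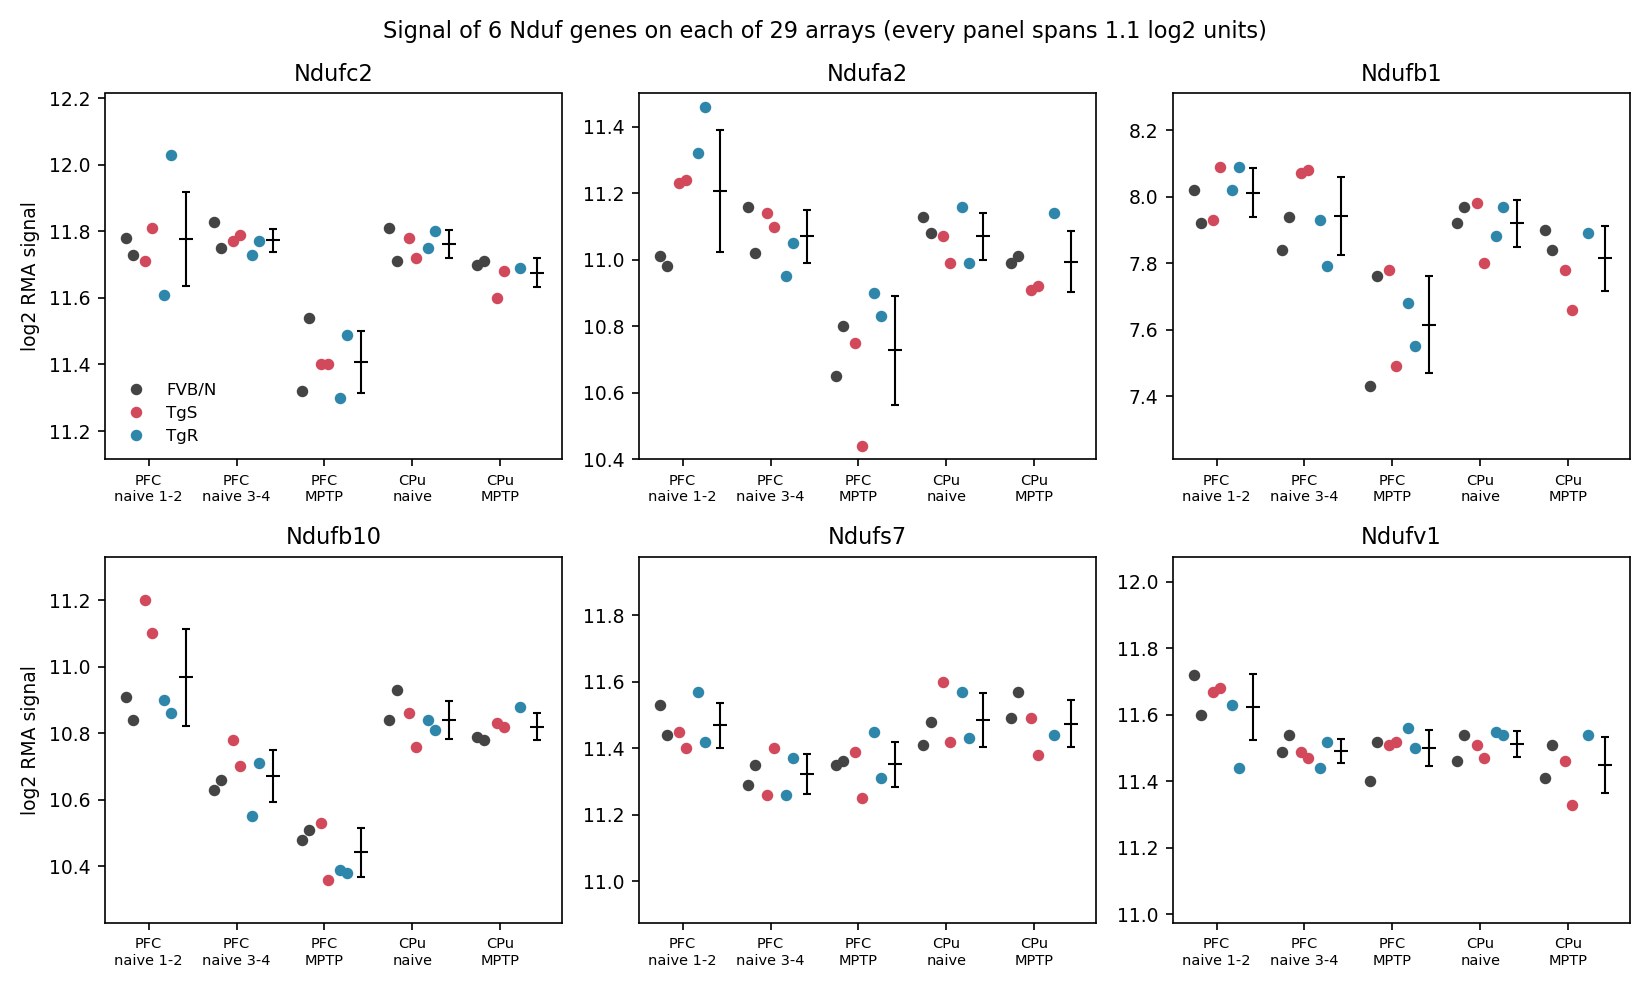
Log2 RMA signal of Ndufc2, Ndufa2, Ndufb1, Ndufb10, Ndufs7 and Ndufv1 on each of 29 arrays (vertical axes of equal span), by region and treatment and coloured by strain, with mean and SD in black. The MPTP PFC arrays are below all naive PFC arrays for the first 4 genes and overlap them for Ndufs7 and Ndufv1.

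Other measures moved with the same arrays. The bioB hybridisation spike-in lay at 7.48 to 7.90 on the MPTP PFC arrays, at 6.71 to 7.22 on naive PFC 3 and 4 and at 7.42 to 8.06 on naive PFC 1 and 2. The dap spike-in lay at 7.30 to 7.68, 6.35 to 6.62 and 3.97 to 7.52 on the same sets. On naive CPu arrays bioB lay at 6.76 to 7.03 and dap at 6.62 to 7.22. On MPTP CPu arrays they lay at 6.54 to 7.21 and 6.48 to 6.92. All 4 endothelial markers measured were higher after MPTP (mean of the list 8.71 to 9.05, against 7.72 to 8.82 on naive 3 and 4 and 8.66 to 8.92 on 1 and 2), where 1 of 4 was higher against arrays 1 and 2, and 2 of 3 pyramidal neuron markers were lower (9.17 to 9.77 against 9.33 to 9.99). Against arrays 1 and 2 (9.21 to 9.92) 0 of the 3 pyramidal neuron markers were called. The mean of 5 markers of all neurons was 11.48 to 11.69 after MPTP and 11.30 to 11.64 in naive 3 and 4, with 1 higher and 0 lower. On arrays 1 and 2 this mean was 10.09 to 11.40. Against them 4 were higher and 0 lower, with Syt1 at 1.98 ± 0.23 and Rbfox3 at 0.705 ± 0.128. Of 5 astrocyte markers 2 were higher and 2 lower (mean of the list 9.84 to 10.08, against 9.49 to 9.96 on naive 3 and 4 and 9.86 to 10.38 on 1 and 2). The largest of these differences was in Gfap, the astrocyte filament gene that rises in reactive astrocytes, at 1.03 ± 0.10 (2.05-fold), but at -0.08 ± 0.10 and not called against arrays 1 and 2. Of 5 microglial markers 2 were higher, C1qa (0.54 ± 0.08) and Tmem119 (0.33 ± 0.04), and 2 lower, P2ry12 (-0.56 ± 0.12) and Cx3cr1 (-0.27 ± 0.05), with list means of 8.68 to 8.86 and 8.70 to 8.91. Against arrays 1 and 2 the direction turned for Tmem119 (-0.10) and P2ry12 (0.53). Of 4 oligodendrocyte markers 1 was lower, Mog (-0.53 ± 0.12), with list means of 10.06 to 10.38 and 10.12 to 10.61. Of 4 meningeal markers 1 was higher, Col1a2 (0.52 ± 0.06), and it was lower against arrays 1 and 2 (-0.28 ± 0.06). The part of hybridisation and of cell composition in the Nduf differences was not tested.

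By strain, the count of members lower after MPTP stood well above the background in TgS and close to it in FVB/N and TgR. In TgS 26 members were lower after MPTP (background 14.1%, median of the members -0.24), in FVB/N 3 (6.25%, -0.11) and in TgR 3 (7.24%, -0.11), with 0 higher in each (19.6%, 9.13% and 12.1% of all probe sets were). The 3 FVB/N genes were Ndufa2 (-0.37 ± 0.09), Ndufc2 (-0.36 ± 0.10) and Ndufb2 (-0.23 ± 0.07), and the 3 TgR genes Ndufc2 (-0.36 ± 0.10), Ndufb10 (-0.25 ± 0.07) and Ndufs8 (-0.24 ± 0.08). Ndufc2 was the gene called in every strain, at -0.38 ± 0.10 in TgS. The differences between strains in the response were tested in limma, and 0 members were called for TgS against FVB/N (2 at an unadjusted p under 0.05, with 0.539% of all probe sets higher and 0.159% lower) and 0 for TgR against FVB/N (0 at that level, with 0.084% and 0.0398%). The TgS count rests largely on 1 array: without TgS MPTP PFC 2 it was 8, while the count for the mean of the strains stayed between 23 and 30 whichever array was left out. With naive arrays 1 and 2 as controls 12 members were lower and 1 higher in FVB/N (12.2% and 13.1% of all probe sets), 22 and 3 in TgS (23.5% and 22.8%) and 25 and 2 in TgR (35.4% and 20.5%).

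Genes with several probe sets were compared over 35 further probe sets of 20 members. Of these, 25 were lower in the PFC after MPTP than in naive arrays 3 and 4 and 2 higher (median -0.22). Of all probe sets 20.5% were lower and 26.7% higher. Both higher ones belong to Ndufab1 (0.34 ± 0.06 and 0.46 ± 0.15), whose brightest probe set was at -0.03 ± 0.04. On the first of the higher ones MPTP PFC arrays lay at 8.32 to 8.46 and naive PFC 1 and 2 at 8.22 to 9.63. On the second of them MPTP PFC arrays lay at 6.82 to 7.32, above naive PFC 1 and 2 at 4.26 to 5.81. For 4 members the brightest probe set was not called and another one was lower: Ndufs7 (-0.17 ± 0.05), Ndufc1 (-0.44 ± 0.06), Ndufb9 (-0.34 ± 0.04) and Ndufaf4 (-0.18 ± 0.05). This Ndufaf4 probe set lay at 8.74 to 8.91 after MPTP and at 8.65 to 8.82 on naive PFC 1 and 2. All 3 probe sets of Ndufv1 were not called.

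The other respiratory complexes were measured for comparison, in lists written with earlier results of these data known. Of complex II genes and factors 4 of 7 were lower in the PFC after MPTP (median -0.17), of complex III 5 of 9 with 1 higher (-0.21), of complex IV 7 of 11 (-0.16) and of ATP synthase 8 of 15 (-0.14). Of all probe sets 20.5% were lower and 26.7% higher in this comparison. Against naive arrays 1 and 2 these were 3 lower and 3 higher for complex II (median -0.02), 7 lower for complex III (-0.20), 7 lower and 1 higher for complex IV (-0.14) and 12 lower and 1 higher for ATP synthase (-0.18). Against those arrays 42.3% of all probe sets were lower and 25% higher, and the complex II count lay near these shares. The genes with the smallest p were Sdhaf4, a complex II assembly factor (-0.41 ± 0.04), Uqcrh, the hinge protein of complex III (-0.27 ± 0.04), Cox6c of complex IV (-0.21 ± 0.03) and Atp5l, subunit g of ATP synthase (-0.34 ± 0.04). Uqcrc1, a core protein of complex III, was higher (0.19 ± 0.04), but lower against arrays 1 and 2 (-0.15 ± 0.04). Of 8 complex I assembly factors outside the Nduf family 3 were lower, among them Tmem70 (-0.30 ± 0.05), and 1 higher, Dmac2 (0.17 ± 0.05). Neither gene was called against arrays 1 and 2 (-0.01 and 0.07).

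Of 13 regulators of mitochondrial gene expression 7 were higher and 2 lower in the PFC after MPTP (median 0.21). Of all probe sets 26.7% were higher and 20.5% lower. The balance of the regulators held against naive arrays 3 and 4 only. Against arrays 1 and 2 there were 4 higher and 5 lower (median 0.02), where 25% of all probe sets were higher and 42.3% lower. On arrays 1 and 2, 9 regulators were higher and 2 lower than on 3 and 4, where 39.2% and 21.5% of all probe sets were. The mitochondrial DNA polymerase gene Polg was higher by 0.44 ± 0.06, and Gabpb1 and Gabpa, which encode both chains of the ETS factor NRF2/GABP, by 0.50 ± 0.07 and 0.27 ± 0.05. Against arrays 1 and 2 all of these were higher too (0.30 ± 0.06, 0.27 ± 0.07 and 0.44 ± 0.05). Nrf1, the gene of nuclear respiratory factor 1, was higher by 0.37 ± 0.08, Yy1 by 0.21 ± 0.05 and Esrra, the estrogen-related receptor alpha, by 0.22 ± 0.05. Against arrays 1 and 2 Nrf1 was at 0.05 ± 0.08 and Yy1 at -0.10 ± 0.05, both not called, and Esrra was lower, at -0.16 ± 0.05. The 2 lower genes were Tfb1m (-0.17 ± 0.05) and Ppargc1a, the coactivator PGC-1alpha (-0.16 ± 0.06), which were lower against arrays 1 and 2 as well (-0.18 ± 0.05 and -0.45 ± 0.06). The largest fall of a regulator against arrays 1 and 2 was in Ppargc1b (-1.02 ± 0.05).

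Since many members moved together, the promoter windows of the members were searched for short sequences taken as sites of these factors. RefSeq windows on GRCm38.p6, 300 bases long with 250 before and 50 from the annotated start, were at hand for 36 of 39 members, with 2 windows for 2 of them. Searched on both strands were the NRF1 palindrome and, including all of its matches, the same letters with the sixth base free (both are spelled by the capitals of the second group of sequences), YY1 as AAGATGGC, ERR as TCAAGGTCA and ETS as CCGGAAGT. The YY1 letters stood in 6 members (16.7%) and in 3.57% of 17492 protein-coding genes (3.19% of all 27025 genes). Their 30-base surroundings are shown because all lie just after the start, with the match in capitals:
Ndufa3, chr7:3617384-3617413, plus strand: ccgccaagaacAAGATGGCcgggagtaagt
Ndufa9, chr6:126849097-126849126, minus strand: cattgtgggagAAGATGGCggccgccgtcc
Ndufb8, chr19:44555393-44555422, minus strand: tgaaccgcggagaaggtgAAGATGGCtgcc
Ndufs4, chr13:114388045-114388074, minus strand: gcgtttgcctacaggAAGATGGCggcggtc
Ndufc1, chr3:51408915-51408944, minus strand: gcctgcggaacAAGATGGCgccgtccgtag
Ndufs7, chr10:80249462-80249491, plus strand: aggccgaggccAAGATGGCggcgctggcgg

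In all 6 the match was on the gene's own strand, and its first base lay 23 to 39 bases from the start, counting the start as 1. The YY1 letters hold an ATG, and neither binding of YY1 nor use as a start codon was tested. Of these members, Ndufa3, Ndufa9, Ndufb8 and Ndufs4 were lower in the PFC after MPTP, and Ndufc1 and Ndufs7 were not called. The NRF1 letters with 1 free base stood in 6 members (16.7%, against 7.17% of protein-coding and 5.19% of all genes). They are shown, with the match in capitals, because the free base separates the full palindrome of Ndufaf4 and Ndufaf5 from the other 4:
Ndufaf4, chr4:24897960-24897989, plus strand: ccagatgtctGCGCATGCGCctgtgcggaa
Ndufaf5, chr2:140170652-140170681, plus strand: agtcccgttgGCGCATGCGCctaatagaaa
Ndufa5, chr6:24527697-24527726, minus strand: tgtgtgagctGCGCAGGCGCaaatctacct
Ndufs5, chr4:123718265-123718294, minus strand: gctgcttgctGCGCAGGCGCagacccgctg
Ndufa6, chr15:82354249-82354278, minus strand: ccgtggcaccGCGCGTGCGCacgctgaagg
Ndufa8, chr2:36049349-36049378, minus strand: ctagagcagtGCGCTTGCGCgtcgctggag

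Of these, Ndufa5, Ndufa6, Ndufaf5 and Ndufs5 were lower in the PFC after MPTP and Ndufaf4 and Ndufa8 were not called. For Ndufa6 and Ndufa8 the letters stand on the strand opposite to that shown, so the capitals are their reverse complement. The full NRF1 palindrome stood in 5.56% of member windows and 1.47% of those of protein-coding genes (1.07% of all). The ETS letters were found in 1 member, Ndufs3 (2.78%, against 5.69% of protein-coding and 4.31% of all genes), and the ERR letters in 0 of 36 (0.377% and 0.466%). Median GC content was 59.3% in member windows and 56.3% in those of protein-coding genes. Any of the motifs stood in 13 members (36.1%), against 15.4% of protein-coding genes. Of the 25 members with a window that were lower after MPTP 4 had the YY1 letters, and of the 11 others 2. The 250 bases before the start of Ndufc2, the member with the largest fall, held none of the letters, in sequence rich in short repeats with 45.2% GC (GRCm38.p6 chr7:97399753-97400002, plus strand):
Ndufc2: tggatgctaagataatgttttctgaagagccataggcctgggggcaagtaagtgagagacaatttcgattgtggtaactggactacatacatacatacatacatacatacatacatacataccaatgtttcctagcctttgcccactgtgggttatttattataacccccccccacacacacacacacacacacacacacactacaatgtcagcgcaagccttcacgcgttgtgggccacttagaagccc

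In the CPu, 0 of 39 members were called in either direction after MPTP (mean of the strains, 5 MPTP against 6 naive arrays; limma), with 1 at an unadjusted p under 0.05. Of all probe sets 1.81% were higher and 1.55% lower. The median of the members was -0.03 and their differences ran from -0.10 to 0.04. The smallest p belonged to Ndufaf5 (-0.10 ± 0.04, adjusted p = 0.245), followed by Ndufs1 (-0.08 ± 0.04, adjusted p = 0.347) and Ndufb6 (-0.08 ± 0.05, adjusted p = 0.405).

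For Ndufc2 the naive CPu arrays were at 11.81 and 11.71 (FVB/N), 11.78 and 11.72 (TgS) and 11.75 and 11.80 (TgR), and the MPTP CPu arrays at 11.70 and 11.71, 11.60 and 11.68, and 11.69. The MPTP arrays were lower than or level with the lowest naive one, and the difference was -0.08 (95% interval -0.22 to 0.05). The mean over the 39 members was 11.18 to 11.28 on MPTP and 11.21 to 11.30 on naive CPu arrays, which overlap. Of the 39 members 0 had all 5 MPTP CPu arrays below all 6 naive ones (0.548% of all probe sets did). None of the listed genes of complexes II to V or of the regulators was called in the CPu.

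**Figure D4:**
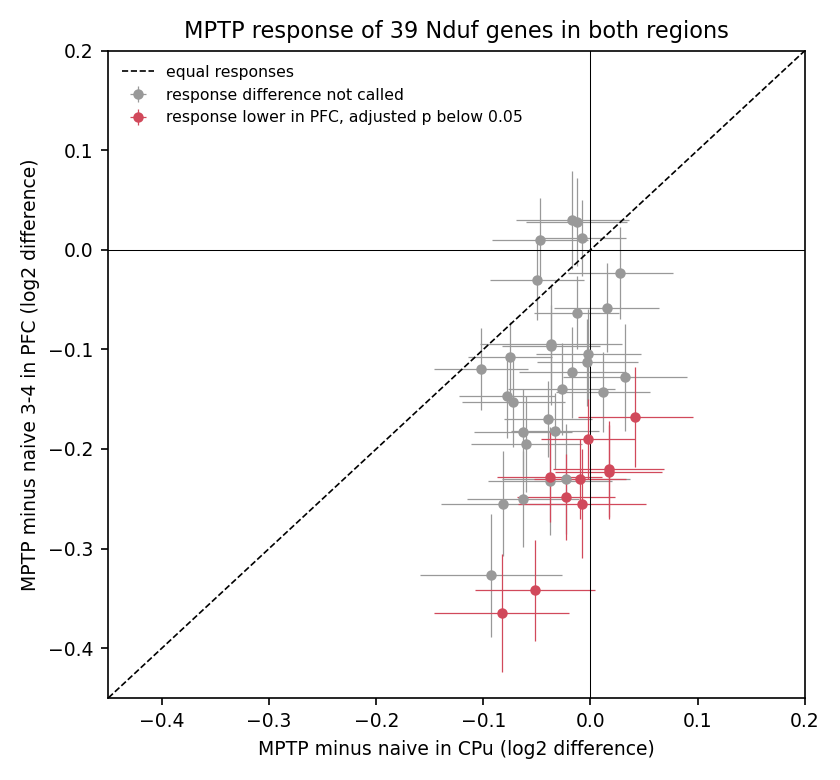
MPTP response of the 39 Nduf genes in CPu (horizontal axis) and in PFC against naive 3 and 4 (vertical axis), as log2 differences with SE. The 10 genes in red, from -0.17 to -0.37 in the PFC, had a response that differed between regions; most points lie below the dashed line of equal responses.

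The regional difference in response was tested directly in limma. For 10 of 39 members the response was lower in the PFC than in the CPu (12.3% of all probe sets), and for 0 it was higher (15.9%). The difference of responses was -0.29 ± 0.08 for Ndufa2 (adjusted p = 0.00855), -0.28 ± 0.09 for Ndufc2, -0.25 ± 0.08 for Ndufa5, -0.24 ± 0.07 for both Ndufb11 and Ndufb7, and -0.23 ± 0.06 for Ndufb2. Ndufb10, Ndufa7, Ndufb3 and the core subunit Ndufs8 made up the rest. The count ran from 7 to 17 with single arrays left out, the 17 without TgS MPTP PFC 1. For 4 of the 6 core subunits the difference of responses was small, from -0.03 (Ndufs1) to 0.06 (Ndufv1), and none of these was called.

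Between the regions, naive PFC 3 and 4 had 8 Nduf genes lower and 1 higher than naive CPu (limma, 6 against 6 arrays), against 28% and 22% of all probe sets. Ndufa1, an X-linked accessory subunit needed early in assembly, was at 12.61 and 12.62 (FVB/N), 12.73 and 12.68 (TgS) and 12.62 and 12.66 (TgR) in naive PFC 3 and 4. In naive CPu it was at 12.96 and 13.01, 12.97 and 12.87, and 12.82 and 12.98. The regions did not overlap, and Ndufa1 was 1.22-fold lower in the PFC (-0.28 ± 0.05, adjusted p = 4.42e-05). Ndufb10, of the distal arm, differed by -0.17 ± 0.04, Ndufs7 by -0.16 ± 0.05, Ndufc1 by -0.16 ± 0.05 and Ndufa3 by -0.15 ± 0.05. The higher gene was Ndufaf1 (0.17 ± 0.05, adjusted p = 0.0152). With naive PFC 1 and 2 in place of 3 and 4, 14 were higher and 6 lower, where 38.8% and 27.6% of all probe sets were; Ndufb10 then lay at 0.13. The sign of 16 members differed between the control sets, and 12 of these were called with one or both. For 5 members all naive PFC 3 and 4 arrays lay below all naive CPu arrays, which was so for 12.8% of all probe sets. The part of dissection and cell composition in these regional differences was not tested.

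On MPTP arrays the gap was wider: 24 of 39 members were lower in PFC than in CPu and 0 higher (6 against 5 arrays), against 27% and 23.7% of all probe sets and 34.6% lower in the 10% with the highest signal. The median was -0.17. No naive array enters this difference, but the bioB and dap spike-ins lay higher on all MPTP PFC arrays than on all MPTP CPu arrays. The part of hybridisation, dissection and cell composition in the regional difference was not tested. Ndufb10 was at 10.48 and 10.51 (FVB/N), 10.53 and 10.36 (TgS) and 10.39 and 10.38 (TgR) in the MPTP PFC, and at 10.79 and 10.78, 10.83 and 10.82, and 10.88 in the MPTP CPu. All PFC values lay below all CPu values, 1.31-fold on average (-0.39 ± 0.04, limma adjusted p = 4.55e-07). Ndufa1 differed by -0.39 ± 0.05, Ndufa7, of the N module, by -0.35 ± 0.05, Ndufb7, of the distal arm, by -0.33 ± 0.05 and Ndufb2 by -0.30 ± 0.05. The regions did not overlap for 16 members (15.3% of all probe sets). The core subunits Ndufs8 (-0.23 ± 0.05) and Ndufv2 (-0.19 ± 0.05) were lower and the other 4 not called. By strain 14 members were lower and 1 higher in FVB/N (19% and 16.7% of all), 11 and 0 in TgS (13.8% and 13.7%), and 10 and 0 in TgR (13.1% and 12.1%), where the CPu has 1 array.

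Between the strains, on the brightest probe set of each gene and with naive PFC 3 and 4, the differences called were in the assembly factors Ndufaf1 and Ndufaf4. Ndufaf1, known for building the membrane arm intermediate, was higher in TgS than in FVB/N in naive PFC 3 and 4, naive CPu and MPTP CPu. In naive CPu it was at 8.56 and 8.62 (FVB/N), 9.02 and 9.04 (TgS) and 8.70 and 8.63 (TgR). In MPTP CPu it was at 8.48 and 8.49, 9.14 and 9.19, and 8.73. The TgS arrays lay above all others in both. TgS exceeded FVB/N by 0.44 ± 0.09 in naive CPu (1.36-fold, limma adjusted p = 0.00713) and by 0.68 ± 0.09 in MPTP CPu (1.60-fold, adjusted p = 0.000291). Of all probe sets 4% and 1.59% were higher and 2.31% and 1.23% lower in those comparisons.

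In naive PFC 3 and 4 Ndufaf1 was at 8.71 and 9.0 (FVB/N), 9.33 and 9.23 (TgS) and 8.68 and 8.62 (TgR), so that TgS again lay above the rest. The difference between TgS and FVB/N was 0.43 ± 0.09 (adjusted p = 0.0148, 0.747% of all probe sets higher, 2.29% lower). Against TgR it was 0.63 ± 0.09 (adjusted p = 0.000556, 1.33% higher, 2.67% lower). On naive PFC arrays 1 and 2, FVB/N was at 9.04 and 9.09, TgS at 9.33 and 9.12 and TgR at 8.84 and 8.94. The order of the strains was as on arrays 3 and 4, but the difference between TgS and FVB/N there was 0.16 (adjusted p = 0.234) and not called. In MPTP PFC, FVB/N was at 8.73 and 8.82, TgS at 9.17 and 8.91 and TgR at 8.61 and 8.56. TgS exceeded FVB/N by 0.27 ± 0.09 (adjusted p = 0.32, not called; 0.442% of all probe sets higher, 0.508% lower) and TgR by 0.46 ± 0.09 (adjusted p = 0.00941; 1.29% higher, 1.34% lower). Across all 4 tissue and treatment sets every TgS array except MPTP PFC 2 was above 9.0.

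A larger difference lay in 1 of the other probe sets. The core subunit Ndufv1 has 3, and on the second brightest (mean log2 signal 10.58, against 11.52 for the probe set used above) TgS stood above both other strains in every set. On it naive PFC 3 and 4 were at 10.36 and 10.22 (FVB/N), 11.17 and 11.20 (TgS) and 10.13 and 10.35 (TgR), and naive CPu arrays at 10.31 and 10.26, 11.11 and 11.13, and 10.34 and 10.24. MPTP PFC arrays were at 10.07 and 10.14, 11.13 and 11.06, and 10.12 and 10.20, and MPTP CPu arrays at 10.19 and 10.15, 11.12 and 10.96, and 10.28. No TgS array overlapped another strain. TgS exceeded FVB/N by 0.90 ± 0.09 in naive PFC (limma adjusted p = 7.03e-06), 0.84 ± 0.09 in naive CPu, 0.99 ± 0.09 in MPTP PFC and 0.87 ± 0.09 in MPTP CPu. On naive PFC arrays 1 and 2 it did so by 0.98 ± 0.09, and TgR exceeded FVB/N there by 0.37 ± 0.09. With single arrays left out the differences between TgS and FVB/N stayed between 0.79 and 1.03 and were called each time. The brightest probe set of Ndufv1 showed no such difference, at 11.49 and 11.47 in TgS and 11.49 and 11.54 in FVB/N in naive PFC 3 and 4, and what sets the probe sets apart was not tested. Of the 35 further probe sets this was the single one called between strains in any set with naive PFC 3 and 4.

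**Figure D5:**
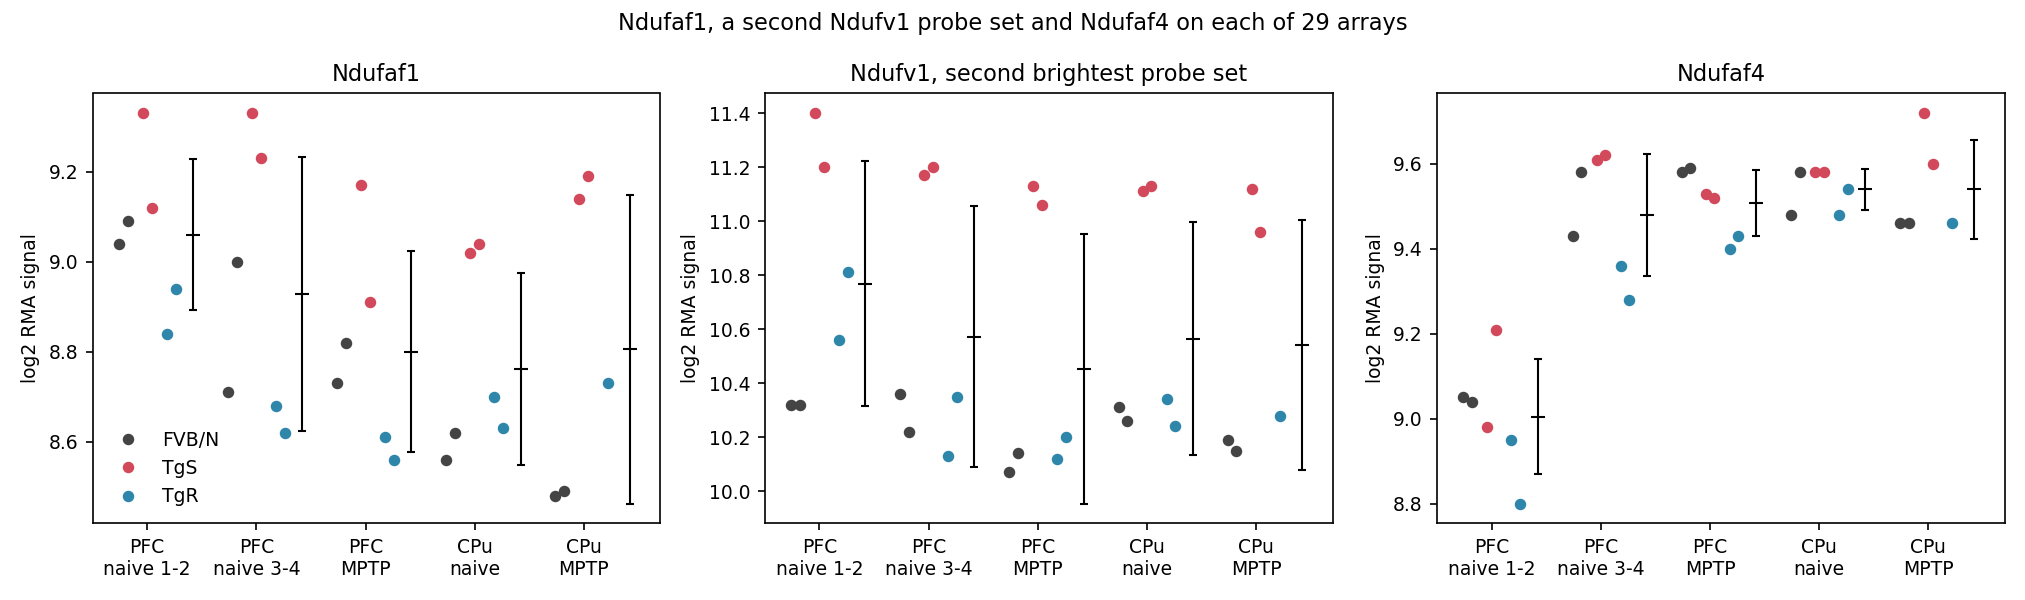
Log2 RMA signal of the assembly factor Ndufaf1, of the second brightest Ndufv1 probe set and of the assembly factor Ndufaf4 on each of 29 arrays (vertical axes of different span), by region and treatment and coloured by strain, with mean and SD in black. TgS arrays are the highest for Ndufaf1 and for this Ndufv1 probe set in every set, and Ndufaf4 is low on naive PFC arrays 1 and 2 (8.80 to 9.21).

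Without FVB/N naive CPu 1 the Ndufaf1 call in naive CPu was lost (difference 0.41), and without FVB/N naive PFC 3 that in naive PFC (0.28). Against TgR in the CPu, Ndufaf1 was higher by 0.37 ± 0.09 in naive arrays (adjusted p = 0.0461, 1.1% of all probe sets higher and 1.14% lower) and by 0.44 ± 0.12 in MPTP arrays (adjusted p = 0.0433, 1.4% higher and 1.92% lower), where TgR has 1 array. Ndufaf4, another assembly factor, was higher in TgS than in TgR in naive PFC (9.61 and 9.62 against 9.36 and 9.28; 0.30 ± 0.08, adjusted p = 0.0343). On their brightest probe sets 0 of the 6 core and 27 accessory subunits were called between any strains in any set with naive PFC 3 and 4, and between TgR and FVB/N 0 of 39 members were called in naive PFC, naive CPu or MPTP PFC (2, 1 and 1 at an unadjusted p under 0.05). Of all probe sets 0.0133%, 0.186% and 0.393% were higher and 0.0221%, 0.0309% and 0.442% lower in these. On naive PFC arrays 1 and 2, by contrast, 7 members were higher and 1 lower in TgS than in FVB/N (10.5% and 14.6% of all probe sets), and 11 higher and 0 lower in TgR (19.8% and 14.2%).

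Across the 29 arrays the members differed in how closely they followed the mean of the other members. As a description, with arrays that share strain, region and treatment, Pearson's r of the levels was 0.91 for Ndufb3, 0.90 for Ndufb8 and 0.89 for Ndufb2, all of the distal membrane arm. It was lowest for Ndufaf4 (-0.38), Ndufaf7 (-0.16), Ndufaf1 (0.19) and Ndufv1 (0.28). After each of the 15 group means was taken off, which leaves the spread between replicates, r was highest for Ndufa7 (0.85), Ndufb2 (0.83) and Ndufb3 (0.83). It was then lowest for Ndufc2 (-0.19), Ndufaf7 (0.16), Ndufv3 (0.22) and Ndufaf4 (0.25), and at 0.59 for Ndufaf1. Ndufaf7 and Ndufaf4 were thus among the 4 lowest by both measures, whereas Ndufaf1 and Ndufv1 (0.46) were so by levels only.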

How the data were processed

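The deposited values are log2 signals per probe set, made by the authors with RMA, and Affymetrix Power Tools and Affymetrix Expression Console are named per the submitters' processing notes (no version of these is given in the sources used here). RMA sets all arrays to a common distribution, so each difference is relative to the other transcripts, and array medians ran from 7.61 to 7.78. No further normalization was applied. Of 22690 probe sets 64 controls were left out, and 0 columns were unused. Gene symbols came from the platform annotation: 20380 probe sets had 1 symbol, 691 several and 1555 none. Coordinates and promoters came from RefSeq (GRCm38.p6).

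In R 4.3.3, limma 3.58.1 fitted 15 group means to the log2 values of all 29 arrays (14 residual degrees of freedom), with naive PFC arrays 1 and 2 of each strain as groups of their own, and tested 34 comparisons two-sided with Benjamini-Hochberg adjustment over 22626 probe sets in each. Called means an adjusted p below 0.05. Values are log2 differences ± SE, and means of the strains weight each strain equally. The precision is limited by the number of arrays. Checked on simulated data of the same size, the fit recovered the log2 differences put in. This checks the calculation and cannot speak to differences in quality or dissection between the sets of arrays. Any member could be named; values per array were given for core subunits and for the members with the largest differences in a comparison, and from each other list up to 3 genes with the smallest p, with further listed genes, marker genes and the second brightest Ndufv1 probe set chosen after their values were seen. The members and all lists were chosen with earlier results of these data known, and the background in the 10% of probe sets with the highest signal was added after the data were seen. Within each region replicate numbers showed no pairing. Correlations of deviations between same-numbered arrays ran from -0.41 to 0.26 over 18 pairs in the PFC and from -0.35 to 0.15 over 10 pairs in the CPu. Pairs of a PFC and a CPu array were not among them, so pairing between the regions was not examined.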

Additional observations from a re-analysis of the deposited data

Results flagged for a closer look

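For 10 members the response to MPTP differed between the regions in limma's test of the difference (PFC response against naive 3 and 4, minus CPu response, on the log2 scale). The values were -0.29 for Ndufa2, -0.282 for Ndufc2, -0.247 for Ndufa5, -0.24 for Ndufb11, -0.237 for Ndufb7, -0.225 for Ndufb2, -0.22 for Ndufb10, -0.21 for Ndufa7, -0.19 for Ndufs8 and -0.188 for Ndufb3. Of these, 9 are accessory subunits and Ndufs8 is a core subunit. Of all probe sets 12.3% had a lower response in the PFC.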

How the results depend on the processing

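The 27 members lower in the PFC after MPTP numbered 25 to 34 under the alternatives to the fit and 23 to 30 with single arrays left out, and all CPu counts after MPTP stayed at 0. Other counts changed with the naive PFC arrays used. The shares over all probe sets change with the controls too, as given above for some comparisons with arrays 1 and 2. They are not set beside the counts of this section. These counts show how far results depend on the settings and are no results about the members alone. With arrays 1 and 2 as controls there were 14 higher between naive regions, 2 higher after MPTP in the PFC, 24 lower and 2 higher for the difference of responses, 8 called for TgS and 11 for TgR against FVB/N in naive PFC, and 3 for the response of either line against that of FVB/N. With a term for the label spelling these were 11 higher and 4 lower between naive regions, 2 higher after MPTP, 21 lower and 2 higher for the difference of responses, and 2 and 2 for the strains in naive PFC. With all 4 naive arrays pooled they were 2 higher and 2 lower between regions, 1 higher after MPTP, 6 lower for the difference of responses, and 0 for TgS against FVB/N in naive PFC and in naive CPu. Quantile normalization gave 3 higher between regions and 16 lower for the difference of responses, and limma's trend and robust options 2 higher between regions. The mean of a gene's probe sets gave 2 higher between regions, 1 higher after MPTP, 19 lower for the difference of responses, and for TgS against FVB/N 2 in naive PFC, 2 in naive CPu, 1 in MPTP PFC and 2 in MPTP CPu. Each region fitted alone gave 0 for TgS against FVB/N in naive PFC.

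Direction turned, with arrays 1 and 2 or with the spelling term, for Ndufs1 (0.013), Ndufs3 (-0.148), Ndufs7 (-0.117), Ndufv1 (-0.122), Ndufa4 (0.002) and Ndufaf7 (0.23) after MPTP in the PFC, the 6 of 39 members that turned there with arrays 1 and 2. Between naive regions 16 members turned with arrays 1 and 2, of which 12 were called with one or both control sets; Ndufb10 (0.128) was called with both. The cause was not tested. Leaving out single arrays gave 0 to 4 higher and 5 to 10 lower between naive regions, 7 to 17 lower for the difference of responses, and for TgS against FVB/N 0 to 2 in naive PFC, 0 to 1 in naive CPu, 0 to 1 in MPTP PFC and 0 to 1 for the PFC response. Without the single TgR MPTP CPu array, means of the strains in the MPTP CPu could not be fitted. A replicate block, although the numbers showed no pairing within a region, gave 26 lower after MPTP in the PFC, 9 for the difference of responses and 24 lower between MPTP regions. In FVB/N the count of members lower after MPTP in the PFC ran from 0 to 3 and in TgR from 0 to 5 with single arrays left out. No array depth is known, and small differences such as those of the core subunits are limited by the number of arrays.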
